A study of Bos taurus with 134 samples.

Results

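The DNA methylomes of bovine metaphase II (MII) oocytes matured in vitro (IVM) and in vivo (IVO) were compared in the scBS-seq libraries numbered 1 to 38. In scBS-seq, bisulfite converts unmethylated cytosines of a single cell, which gives the share of CpG calls in a genomic window that are methylated. The comparison was made between 18 IVM oocytes (libraries 1 to 18) and 20 IVO oocytes (libraries 19 to 38), which are 38 of 46 bisulfite libraries and of 134 libraries in the series. The windows were those on chromosomes 1 to 29 with a value in at least 5 oocytes of each group, which kept 31932 of 39778 autosomal windows and of 41322 windows in all.

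All oocytes were wild-type and came from 4 Holstein heifers aged between 15 and 18 months. For IVM, heifers received GnRH 8 days after estrus, and follicles of up to 8 mm were aspirated 4 days later. These immature oocytes were cultured for 22 h. IVO oocytes came from heifers superovulated with 180 mg of FSH. Their follicles, of 8 mm or more, were aspirated 24 h after GnRH, and oocytes with expanded cumulus were denuded at once. The groups thus differ in hormone treatment and follicle size as well as in the site of maturation, and these cannot be told apart. Library number and group cannot be told apart within libraries 1 to 38 either, and 8 more IVM oocytes (libraries 39 to 46) are given beside the main values for that reason. No label names the cow of an oocyte, so the oocytes of each group were treated as 1 sample. SDs and ranges over oocytes are descriptions, and IVM was not tested against IVO. The methods state that libraries with signs of somatic DNA, read from methylation of CpG islands on the X chromosome, were left out. The windows used here are not such islands, so the cell type was not checked again, and the part of cumulus cell DNA in any value was not tested.

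In the growing oocyte, methylation is laid down de novo, mainly over transcribed gene bodies, while regions without transcription and most active CpG islands stay unmethylated. The mature oocyte therefore carries a patchwork of highly and lowly methylated domains, and imprinted genes receive their maternal marks in the same phase. Where windows are defined by a number of CpGs, CpG-rich stretches give short windows and CpG-poor stretches long ones, but CpG density was not measured here. They were 156 to 1131106 bp long (median 45420 bp), and the median gap to the next window was 303 bp.

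Methylation was slightly lower in IVM than in IVO oocytes. Averaged over windows, IVM oocytes had a level of 57.3% and IVO oocytes of 59.6%. The mean difference was -2.34 percentage points and its median over windows -2.05. The map itself was shared by both groups, since the window means of IVM and IVO had a Pearson's r of 0.846 across 31932 windows, which are not independent. IVM was lower in 57.3% of windows, higher in 42.5% and equal in 0.163%. Single windows scattered widely around the mean difference, with an SD of 13.4 points. The oocytes within a window scattered more, with a mean SD of 27.5 points in IVM and 29.2 points in IVO. A window was measured in a median of 12 IVM and 12 IVO oocytes. The X chromosome, outside the rule, had 1369 windows measured in the same way, with 56.9% in IVM and 60.1% in IVO.

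Of 31932 windows, 2782 (8.71%) were lower in IVM by at least 20 points and 1461 (4.58%) were higher by at least 20 points. Past this size, more windows were lower in IVM than higher. The part of the scatter of oocytes within a window in these shares was not tested. Among the 19511 windows with at least 10 oocytes of each group, 1224 (6.27%) were lower and 452 (2.32%) higher by this size. IVM values of exactly 100% made up 28.9% of all IVM values, compared with 34.4% in IVO, and values of 0% made up 10.6% and 12.3%. As the table holds no numbers of CpG calls, the precision of a single value could not be given.

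The mean level of an oocyte varied with how many windows were measured in it. IVM oocytes had between 8050 and 30962 windows (median 27718), and IVO oocytes between 6570 and 32331 (median 23135). IVM oocytes had means between 52.9 and 76.6% (median 57.5%, SD 6.91, n = 18), and IVO oocytes between 57.1 and 77.5% (median 61.3%, SD 4.98, n = 20). Oocytes with few windows had high means. In IVM, library 7 had 76.6% over 9330 windows and library 4 had 74.2% over 8050 windows. In IVO, library 30 had 77.5% over 6570 windows. Pearson's r of oocyte mean and number of windows was -0.942 over the 18 IVM oocytes and -0.884 over the 20 IVO oocytes. Among oocytes with at least 20000 windows it was -0.495 over 13 IVM and -0.782 over 14 IVO oocytes.

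Each oocyte was also described by its mean deviation from the window level averaged over both groups, which takes account of the windows it covers. The oocytes with few windows stayed high in this measure, at 12.9 points in library 7, 11.0 points in library 4 and 12.8 points in library 30. IVO library 29, with 7554 windows, was lower, at 6.17 points and a mean of 68.0%. IVM oocytes deviated by -5.90 to 12.9 points (median -1.71) and IVO oocytes by -1.79 to 12.8 points (median 1.56). The groups overlapped, with 13 of 18 IVM oocytes below the IVO median and 9 of 18 below every IVO oocyte. Among oocytes with at least 20000 windows, the deviation lay between -5.90 and 0.571 points in 13 IVM oocytes and between -1.79 and 3.24 points in 14 IVO oocytes. All 13 of these IVM oocytes lay below the median of these IVO oocytes, and 9 of 13 below the lowest of them. In these 27 well covered oocytes the window mean differed by -3.05 points. After a linear adjustment of the deviations for the number of windows, chosen after seeing the data, the difference was -0.713 points, while without the adjustment it was -2.01 points in the same measure. The part of coverage in the difference was not tested further.

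**Figure D1:**
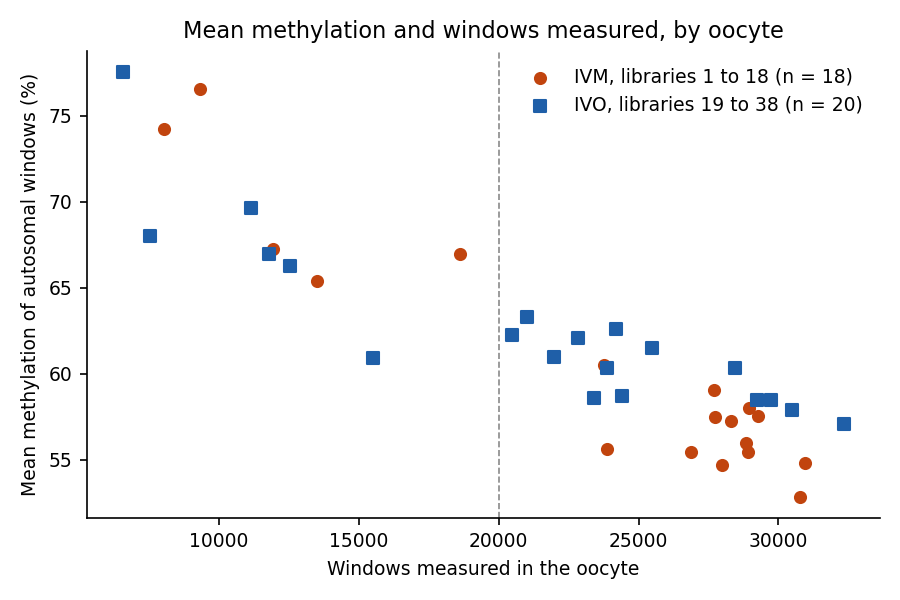
Mean methylation of autosomal windows (%) against the number of windows measured for each of 18 IVM oocytes (circles) and 20 IVO oocytes (squares), with a dashed line at 20000 windows. Oocytes with few windows had high means in both groups, and right of the line the IVM oocytes lie mostly below the IVO oocytes.

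The lower level in IVM was present on each of the 29 autosomes. The mean window difference ranged from -3.25 points on chromosome 4 to -1.48 points on chromosome 8, with a median over chromosomes of -2.32 and an SD of 0.476 points. Every autosome also had more windows lower in IVM than higher, between 54.4% and 61.3% of its windows. Windows lower by at least 20 points outnumbered those higher by 20 points on all 29 autosomes, and made up between 6.43% and 9.90% of a chromosome's windows. The counterpart shares on the high side were 2.67 to 7.10%, with the highest on chromosome 18.

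Chromosomes 4, 6 and 3 showed the most negative differences. On chromosome 4 the level was 60.8% in IVM and 64.1% in IVO over 1144 windows. On chromosome 6 it was 57.1% and 60.3%, a difference of -3.23 points over 984 windows. On chromosome 3 it was 55.3% and 58.4%, a difference of -3.13 points over 1305 windows. Even here the oocytes overlapped. On chromosome 4 the oocyte deviation ran from -4.99 to 9.99 points in IVM (median -1.35) and from -2.27 to 10.8 points in IVO (median 1.67), with 14 of 18 IVM oocytes below the IVO median.

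At the other end stood chromosomes 27, 17 and 8. Chromosome 27 had 55.4% in IVM and 57.0% in IVO over 719 windows (-1.59 points), and chromosome 17 had 59.3% and 60.9% over 981 windows (-1.56 points). Chromosome 8 had 61.5% and 63.0% over 1244 windows. Its oocyte deviations ran from -5.04 to 10.6 points in IVM (median -1.24) and from -3.43 to 11.8 points in IVO (median 1.05), with 12 of 18 IVM oocytes below the IVO median. Across all 29 autosomes this count was between 12 and 14 of 18.

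The remaining 23 autosomes fell between these values. Differences between -2.9 and -2.5 points were found on chromosomes 12 (-2.86), 23 (-2.79), 9 (-2.71), 14 (-2.67), 1 (-2.60), 11 (-2.56) and 16 (-2.52). Differences between -2.4 and -2.2 points were found on chromosomes 19 (-2.37), 7 (-2.36), 24 (-2.36), 20 (-2.34), 15 (-2.32), 10 (-2.31), 22 (-2.30), 29 (-2.28), 25 (-2.28), 21 (-2.24) and 28 (-2.20). The smaller ones were on chromosomes 2 (-2.11), 13 (-2.02), 5 (-1.85), 18 (-1.74) and 26 (-1.60).

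The order of the autosomes was not tested. When each oocyte's own genome-wide deviation was subtracted, the difference of a chromosome lay between -0.989 points (chromosome 4) and 0.761 points (chromosome 18). The SD over oocytes of such a centred value was between 1.14 and 3.23 points, which is the spread of single oocytes and not of the difference. What differed far more between chromosomes was the level itself. In IVO it was highest on chromosomes 22 (68.2%), 10 (65.0%) and 7 (64.8%) and lowest on chromosomes 23 (55.5%) and 5 (56.1%), and IVM levels followed with a Pearson's r of 0.988 over 29 chromosomes. The difference had an r of -0.025 with the IVO level, -0.435 with the median window length and 0.371 with the chromosome number over the same 29 chromosomes.

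IVM libraries 39 to 46 were set against the same 20 IVO oocytes, so both sets of differences share their control oocytes. Here the windows of the comparison with a value in at least 1 of these IVM oocytes were used, 31800 in all. The window means of these libraries were below IVO on 29 of 29 autosomes, with differences between -4.42 points (chromosome 14) and -1.39 points (chromosome 8) and a median of -3.08. On chromosome 4 the difference was -3.20 points, on chromosome 6 -3.86 points and on chromosome 3 -3.83 points. On chromosomes 27 and 17 it was -3.19 and -2.23 points.

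**Figure D2:**
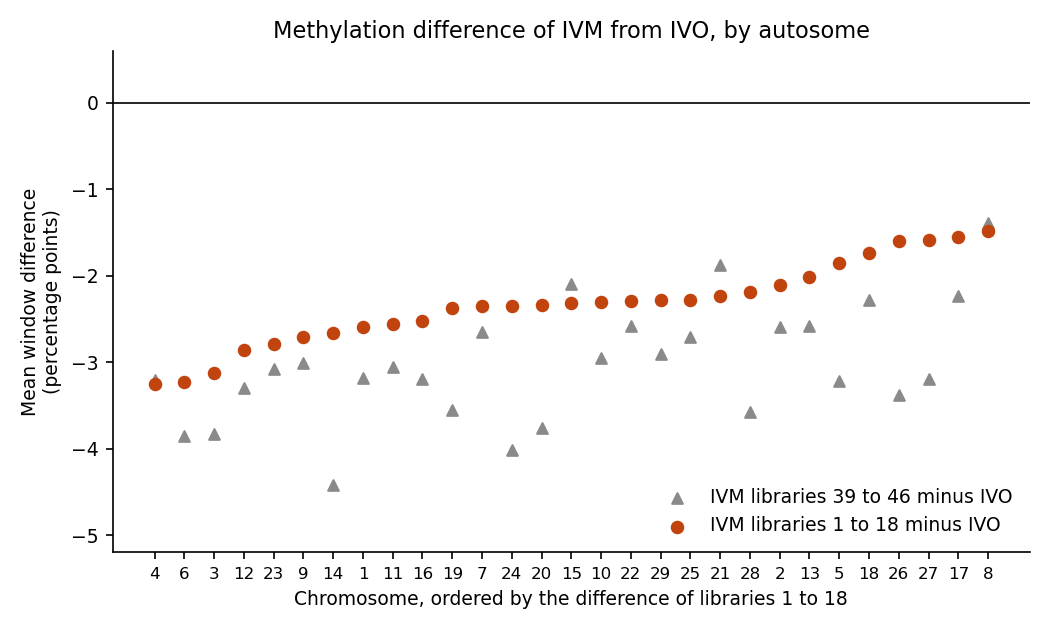
Mean window difference, IVM minus IVO (percentage points), on each of 29 autosomes, ordered by the difference of IVM libraries 1 to 18 (circles), with IVM libraries 39 to 46 against the same IVO oocytes as triangles. All points lie below 0, the circles between -3.25 and -1.48 points and the triangles between -4.42 and -1.39 points.

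Bovine autosomes are acrocentric, with the centromere at one end. Each chromosome was divided into 10 parts of equal length, from the start of its coordinates to the end of its last window. The difference was negative in every part and ranged from -2.70 points in the first part to -1.97 points in the fourth. In the last part the windows were shortest, with a median of 23600 bp, and the level was lowest, at 53.3% in IVM and 55.7% in IVO, and the difference was -2.45 points. For IVM libraries 39 to 46 against the same IVO oocytes, the differences ranged from -2.05 points in the sixth part to -3.74 points in the last, which was the most negative of the 10 parts.

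Window length sorted the level of methylation more clearly than it sorted the difference. The 3194 shortest windows, of 156 to 10557 bp, had a level of 51.0% in IVM and 52.4% in IVO, whereas the 3194 longest, of 175381 to 1131106 bp, had 62.0% and 64.7%. The difference was -1.36 points in the shortest group and -2.65 points in the longest. In the 8 groups between them, it lay between -2.73 and -1.88 points, with no steady change along the order. The share of windows lower in IVM was 53.6% in the shortest group and 60.3% in the longest.

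The oocytes overlapped at every length. Among the shortest windows, the oocyte deviation ran from -3.82 to 8.19 points in IVM (median -0.104) and from -5.41 to 7.05 points in IVO (median 1.67). Among the longest windows it ran from -7.11 to 14.8 points in IVM (median -2.48) and from -3.13 to 13.5 points in IVO (median 1.48). After centring each oocyte on its own genome-wide deviation, the shortest group had a difference of 0.973 points and the longest of -0.343 points. The SDs over single oocytes were 2.82 and 2.50 points in the shortest group and 1.26 and 0.963 points in the longest. For IVM libraries 39 to 46 against the same IVO oocytes, the differences were -2.01 points in the shortest group and -3.04 points in the longest.

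Large differences in single windows were found mainly among short windows, where fewer oocytes were measured. Windows lower in IVM by at least 20 points made up 9.77% of the shortest group, 12.6% of the next and 4.01% of the longest. On the high side these shares were 7.23%, 7.23% and 0.845%. The SD of the window difference narrowed from 15.3 points in the shortest group to 9.87 points in the longest, while the mean number of IVM oocytes behind a window rose from 9.05 to 15.6 and that of IVO oocytes from 8.86 to 16.1. The part of the number of oocytes in these shares was not tested.

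**Figure D3:**
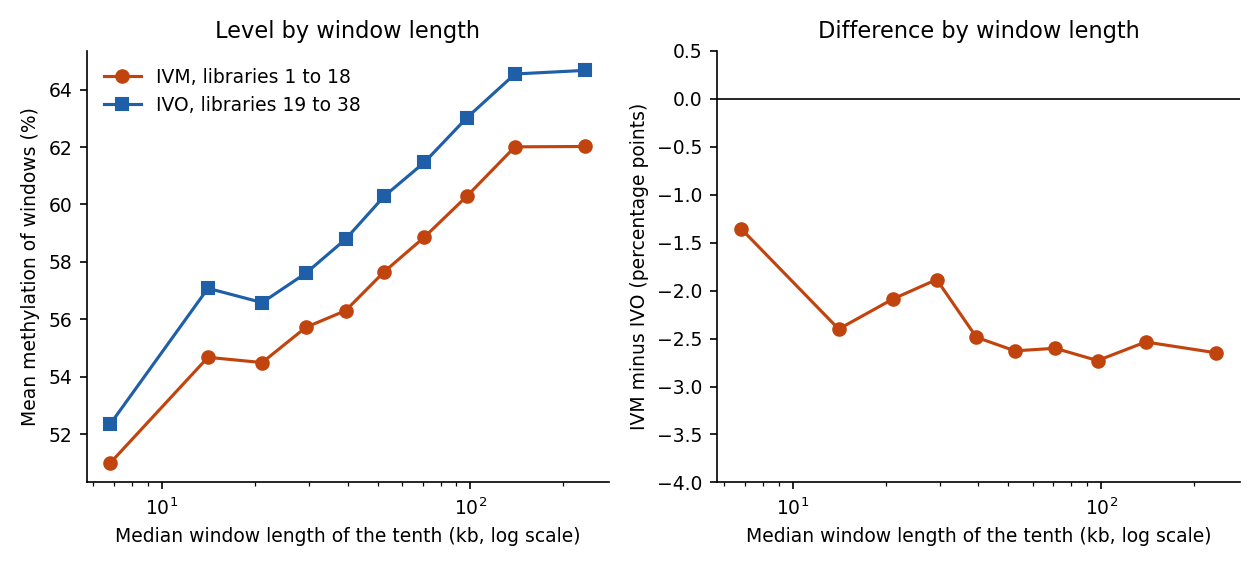
Left, mean methylation (%) of IVM (circles) and IVO (squares) in 10 groups of windows by length, placed at the median length of the group (kb, log scale, the vertical axis not starting at 0). Right, IVM minus IVO (percentage points) in the same groups. Between the shortest and the longest group the IVM level rises from 51.0 to 62.0% and the IVO level from 52.4 to 64.7%, and the difference lies between -2.73 and -1.36 points.

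Neighbouring windows were correlated in their level but hardly in their measured difference. Over 31903 pairs of adjacent windows, Pearson's r was 0.441 for the IVM level and 0.435 for the IVO level. For the difference between IVM and IVO it was 0.027. The window difference had an SD of 13.4 points. Oocytes within a window scattered with mean SDs of 27.5 points in IVM and 29.2 points in IVO. Such scatter can lower r of the difference, so the low r does not show that neighbouring differences are unrelated. The part of this scatter was not tested. For the level, r declined to 0.283 at a lag of 2 windows, 0.151 at 5, 0.081 at 10 and 0.038 at 100 in IVO. At these lags, r of the difference was 0.012, 0.012, 0.006 and -0.003. Adjacent windows differed in the same direction in 51.9% of pairs, beside 50.9% from the overall shares of lower and higher windows alone, and the longest run of windows lower in IVM held 19 windows.

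The correlation of adjacent differences was similarly low on each autosome, ranging from -0.046 to 0.074 (SD 0.032 over 29 chromosomes) and lying above 0 on 21 of them. The IVO level gave 0.341 to 0.523 on the same chromosomes. When the windows were split by length into 3 equal groups, r of the difference was 0.017 over 6317 pairs with both windows in the shortest group and 0.036 over 6810 pairs with both in the longest. The corresponding r of the IVO level was 0.469 and 0.451. A weak correlation of this size is not a finding.

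**Figure D4:**
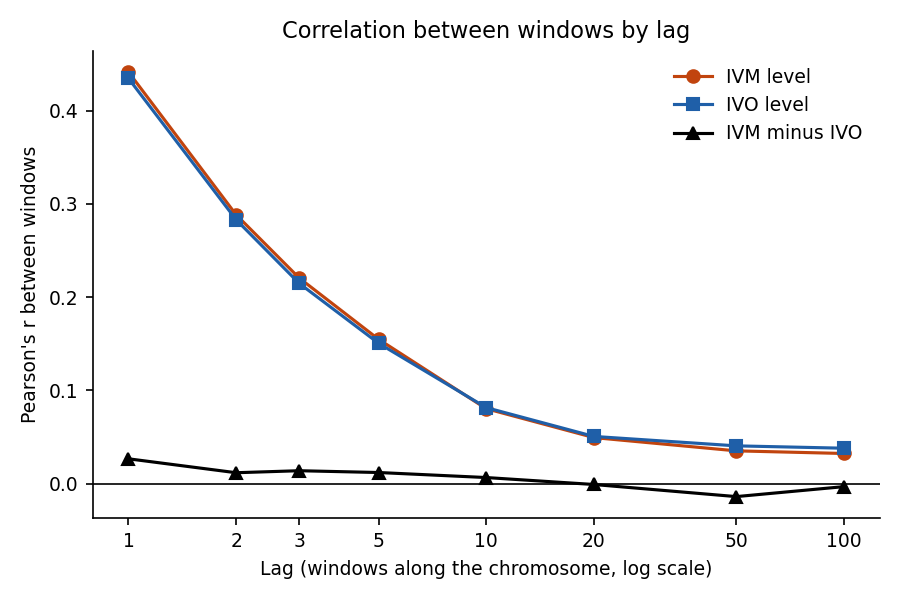
Pearson's r between windows at lags of 1 to 100 windows along the chromosome (log scale) for the IVM level (circles), the IVO level (squares) and the difference between IVM and IVO (triangles). The levels start at 0.441 and 0.435 and decline with the lag, whereas the difference starts at 0.027 and stays near 0.

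The difference was also averaged over blocks of 10 consecutive windows. Of 3181 blocks, 2230 (70.1%) had a mean difference below 0. The SD over blocks was 4.47 points, beside 4.25 points obtained by dividing the SD over single windows by the square root of 10. The part of the scatter of oocytes in either value was not tested. A difference of at least 10 points was reached by 138 of the 3181 blocks on the low side and 9 on the high side. As the mean over blocks was -2.34 points, these 2 cuts are not equally far from it. An excess of low blocks beyond this shift was not tested.

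The block with the lowest difference was chr3:120492678-120724277 (UMD3.1), with 29.9% in IVM and 49.0% in IVO (-19.1 points). IVM was lower in 8 of its 10 windows, and it holds the promoter of KIF1A, a kinesin motor that carries vesicles along axons. The block at chr29:47589516-47846078 had 24.8% and 43.4% (-18.5 points) and was lower in IVM in all 10 windows. The other low blocks were chr13:43302616-43909498 (40.1% and 59.1%), chr19:56267328-56505546 (53.7% and 72.5%) and chr23:52050589-52301856 (39.4% and 56.8%). Oocytes overlapped in all 5. In the chromosome 29 block, oocyte deviations ran from -31.9 to 23.0 points in IVM (median -8.34) and from -44.4 to 53.7 points in IVO (median 11.4). IVM libraries 39 to 46 were also below the same IVO oocytes in these blocks, by differences of -30.2 points on chromosome 3, -11.5 on chromosome 29, -13.6 on chromosome 13, -14.2 on chromosome 19 and -5.07 on chromosome 23.

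On the high side, the block at chr1:155484663-155747409 had 63.6% in IVM and 46.7% in IVO (16.9 points), although only 6 of its 10 windows were higher in IVM. Next came chr25:34286702-34422339 (64.4% and 53.1%, 11.3 points), chr21:68117249-68370675 (50.2% and 39.0%, 11.2 points), chr17:69199088-69526119 (37.0% and 25.8%, 11.2 points) and chr25:38116319-38440205 (66.9% and 55.7%, 11.2 points). IVM libraries 39 to 46 differed less from IVO in all 5 blocks, with 2.69 points on chromosome 1, 3.37 on chromosome 21, 6.80 on chromosome 17 and 10.5 and 4.33 in the first and second block on chromosome 25. Because these blocks were taken from the ends of the order over libraries 1 to 38, the size of their differences describes that choice. The same IVO oocytes entered the choice of the low and the high blocks. The signs in IVM libraries 39 to 46 are therefore not independent of it.

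Among single windows with at least 10 oocytes of each group, the most negative difference was at chr19:26922670-26964356. The 10 IVM oocytes had a mean of 17.0% (SD 21.0, median 9.00%, range 0 to 60%) and the 12 IVO oocytes 80.8% (SD 35.6, median 100%, range 0 to 100%), a difference of -63.8 points. No IVM oocyte and 8 of 12 IVO oocytes were at 100%, yet the ranges overlapped, and 1 IVO oocyte was at 0%. The windows before and after it differed by -22.7 and -9.02 points. At chr7:85925763-85993426, 13 IVM oocytes had 36.3% (SD 43.1, median 14.3%, range 0 to 100%) and 12 IVO oocytes 91.8% (SD 16.3, median 100%, range 50 to 100%), a difference of -55.5 points. The remaining low windows were chr11:103924705-103941053 (36.7% and 90.0%), chr22:44125929-44183415 (18.9% and 71.7%) and chr11:97395664-97408080 (28.1% and 78.0%), the last with neighbours that differed by 11.3 and -5.69 points.

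The window with the most positive difference, at chr19:38497063-38515362, showed the opposite picture. Its 11 IVM oocytes had 58.7% (SD 40.8, median 40.0%, range 10.7 to 100%) and its 11 IVO oocytes 6.63% (SD 12.1, median 0%, range 0 to 40%), a difference of 52.1 points. Of the IVO oocytes, 6 were at 0%, and of the IVM oocytes none was at 0% and 5 were at 100%. The windows before and after it differed by -1.54 and 8.73 points. Next came chr4:12041957-12095809 (91.4% and 43.8%), chr22:49267973-49317657 (93.0% and 45.9%), chr10:68043268-68120264 (88.3% and 44.9%) and chr15:23718267-23740845 (84.6% and 42.4%). The neighbours of the chromosome 4 window differed by -35.9 and -3.65 points, opposite to the window itself. IVM libraries 39 to 46 had a mean of 15.0% in 4 oocytes at the lowest of these 10 windows and 30.0% in 8 oocytes at the highest. At the other low windows, in the order given, they had 50.0% (5 oocytes), 49.6% (4), 32.6% (4) and 61.1% (3). At the other high windows they had 95.2% (4 oocytes), 83.2% (7), 78.2% (7) and 100% (2).

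Windows in which the groups did not overlap at all were rare. Every IVM oocyte lay below every IVO oocyte in 5 windows (0.0157% of windows), and above in 4 (0.0125%). They rested on between 5 and 12 oocytes of a group and are named here after their values were seen. The low ones were chr19:56378374-56398461 (10.4% in 7 IVM and 84.4% in 5 IVO oocytes), chr16:45227402-45240474 (18.6% in 8 and 77.8% in 6), chr1:154268808-154283158 (2.35% and 58.3%, 5 oocytes each), chr25:14618617-14655458 (23.9% in 5 and 79.0% in 8) and chr26:42812985-42831236 (0% and 42.5%, 5 oocytes each). The first of them lies within the low block of chromosome 19. In that window, however, 3 oocytes of IVM libraries 39 to 46 had a mean of 83.3%, close to IVO. In the other low windows, in the order given, these libraries had 48.0% (5 oocytes), 13.9% (1 oocyte), 48.1% (6) and 32.6% (4). The high ones were chr7:112348777-112373077 (81.0% in 7 IVM and 6.67% in 5 IVO oocytes), chr24:54767892-54805399 (50.3% in 7 and 2.54% in 12), chr11:230452-244058 (33.3% in 5 and 0% in 7) and chr3:114052198-114070767 (33.5% and 3.60%, 6 oocytes each). Here IVM libraries 39 to 46 had 66.7% (3 oocytes), 41.7% (3), 0% (2), the IVO level, and 20.8% (4).

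Genes were placed by the promoter coordinates available for chromosomes 1 to 5, and each value below is the level of the whole window that holds the promoter, not of the promoter itself. The HOX genes encode transcription factors that pattern the body axis and lie in CpG-rich clusters. Of 20 HOX promoters, 17 lay in 14 measured windows with a median length of 10230 bp and low levels, the median being 15.9% in IVM and 24.6% in IVO. IVM was lower in 9 and higher in 5 of the 14 windows, compared with 57.3% lower among all windows. By at least 20 points, 3 were lower and 0 higher, beside 8.71% and 4.58% of all windows, and the median difference was -8.76 points beside -2.05 over all windows. These counts are small, and nothing particular to the HOX windows is read from them.

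The window of HOXC9 differed most, with 22.2% in 10 IVM oocytes (SD 29.3, median 13.0%, range 0 to 100%) and 54.9% in 11 IVO oocytes (SD 38.3, median 57.1%, range 0 to 100%). HOXA2 had 37.6% in 11 IVM oocytes (SD 42.5) and 65.4% in 13 IVO oocytes (SD 42.1). HOXC11 had 4.41% in 10 IVM oocytes (SD 7.18, range 0 to 16.7%) and 32.1% in 7 IVO oocytes (SD 46.9, range 0 to 100%). The IVO mean of HOXC11 rested on 2 oocytes at 100%, as 3 of the 7 were at 0% and the median was 4.76%. For IVM libraries 39 to 46, HOXC9 was at 64.2% in 4 oocytes, HOXA2 at 37.3% in 6 and HOXC11 at 2.48% in 5. HOXC9 was thus above the IVO level in these libraries.

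Within the same clusters, HOXA5 (21.7% in IVM and 38.9% in IVO), HOXC13 (2.84% and 17.4%), HOXA6 (7.68% and 21.4%), HOXC5 and HOXC8 in one window (15.1% and 24.9%), HOXA13 (16.7% and 24.4%) and HOXD12 and HOXD13 in one window (1.48% and 3.84%) were also lower in IVM. HOXA7 and HOXA9, again in one window, were at 11.6% and 11.5%. HOXC12 (11.5% and 4.21%), HOXD9 (52.6% and 46.6%), HOXD11 (24.2% and 22.0%) and HOXD1 (39.5% and 37.7%) were higher. Single oocytes at 100% decided several of these values. Leaving out the 1 such IVO oocyte, a step chosen after seeing the data, gave an IVO mean of 1.79% for HOXA6, 0.889% for HOXC13 and 11.8% for HOXA13, so that the difference turned positive for HOXA6 (5.90 points), HOXC13 (1.95 points) and HOXA13 (4.89 points). HOXA13 also had 1 IVM oocyte at 100%, without which IVM was at 2.78% and the difference -21.6 points. Leaving out the 1 such IVM oocyte gave 1.78% for the window of HOXA7 and HOXA9 (-9.67 points). The HOXD windows differed by less than 6 points between the groups, but without the 1 IVO oocyte at 100% the difference was 8.06 points at HOXD1 and 7.69 points at HOXD11. IVM libraries 39 to 46 were below the same IVO oocytes in 10 and above them in 4 of the 14 windows, compared with 56.0% below among the 31800 windows measured in these libraries. Besides HOXC9, the windows above were HOXA5 (46.1% in 6 oocytes), HOXD12 and HOXD13 (24.0% in 5) and HOXC12 (10.7% in 4). HOXD1, HOXD9 and HOXD11, higher in IVM libraries 1 to 18, were at 25.8%, 42.8% and 8.61%, below IVO. HOXA3, HOXA10 and HOXA11 lay in windows measured in fewer than 5 oocytes of a group.

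Imprinted genes are expressed from one parental allele, and those with maternal marks are methylated in the oocyte. The window of MEST, a maternally methylated gene of the hydrolase fold family, was higher in IVM, with 75.9% in 12 IVM oocytes (SD 25.1, median 80.0%, range 10 to 100%) and 52.5% in 12 IVO oocytes (SD 34.3, median 58.3%, range 0 to 100%). The difference was 23.4 points, with overlapping oocytes, and 5 oocytes of IVM libraries 39 to 46 had 66.2%. The window spans 87109 bp, so it covers far more than the imprinted region. The neighbouring COPG2, a subunit of the vesicle coat, had 86.5% and 77.6%. At MEST and at COPG2, 1 IVO oocyte was at 0%, and the means without it were not computed. SGCE, an imprinted sarcoglycan gene, lay in a pair of windows with 79.6% and 76.0% in the first and 91.4% and 92.7% in the second. Of the 4 imprinted windows, IVM was lower in 1 and higher in 3, compared with 57.3% and 42.5% of all windows. MEST was the 1 window higher by at least 20 points, a size reached by 4.58% of all windows. IVM libraries 39 to 46 were above IVO in all 4, while 56.0% of all windows were below. COPG2 was at 91.4% in 7 of these oocytes, and SGCE at 98.7% in 6 and 100% in 1.

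Genes of oxidative phosphorylation supply the oocyte with ATP from its mitochondria. Of 13 such promoters, 11 lay in measured windows, 7 lower and 4 higher in IVM, with none past 20 points and a median difference of -0.478 points. Among all windows, 57.3% were lower, 8.71% lower by at least 20 points and 4.58% higher by that size. The lowest were subunits of complex I, namely NDUFA9 (60.3% in 15 IVM and 73.9% in 9 IVO oocytes) and NDUFS5 (36.8% in 15 and 46.8% in 13). In IVM libraries 39 to 46, however, NDUFA9 was at 71.5% in 5 oocytes, close to IVO, and NDUFS5 at 54.3% in 8, above IVO. NDUFS1 of the same complex had 59.3% and 66.8%, whereas NDUFV3, NDUFA12 and NDUFA10 had 62.8% and 59.5%, 73.1% and 71.9%, and 25.0% and 25.8%. At NDUFV3 the difference of 3.33 points became 0.856 without the 1 IVM oocyte at 100% and 6.71 without the 1 IVO oocyte at 100%. The sign at NDUFA10 rested on single oocytes, as the difference was -6.58 points without the 1 IVM oocyte at 100% and 5.93 points without the 1 IVO oocyte at 100%. COX14, an assembly factor of cytochrome c oxidase, was at 80.9% in both groups, and COX17, its copper chaperone, at 77.4% and 75.6%. The ATP synthase genes ATP5O, ATP5F1 and ATP5G3 had 66.1% and 67.7%, 64.0% and 64.5%, and 79.5% and 75.5%. IVM libraries 39 to 46 were below IVO in 9 and above it in 2 of the 11 windows (all windows, 56.0% below), and among those below were all 4 windows that were higher in IVM libraries 1 to 18, namely NDUFV3 (38.7%), NDUFA12 (58.2%), COX17 (67.9%) and ATP5G3 (40.0%). NDUFB4 and UQCRH lay between windows.

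Of 6 chromatin regulators, 4 were lower and 2 higher in IVM, compared with 57.3% lower among all windows. KDM5A, a histone demethylase, had 46.7% in 11 IVM oocytes (SD 45.2, range 0 to 100%) and 69.7% in 9 IVO oocytes (SD 41.4, range 0 to 100%), the one window of this list lower by at least 20 points, a size reached by 8.71% of all windows. KMT2C, a histone methyltransferase, went the other way, with 81.8% in 15 IVM oocytes (SD 18.2) and 69.3% in 14 IVO oocytes (SD 30.2). Of these IVO oocytes 1 was at 0%, and the medians were 88.2% in IVM and 78.4% in IVO. In IVM libraries 39 to 46 KMT2C was at 58.2% in 7 oocytes, below IVO. EZH2, a histone methyltransferase of the Polycomb machinery, had 50.5% and 58.7%, and without the 1 IVM oocyte at 100% the difference went from -8.19 to -15.3 points. HDAC4 (95.9% and 97.1%), SETDB1 (69.8% and 69.2%) and KMT2E (69.6% and 70.6%) differed by less than 2 points. In all 6 windows, compared with 56.0% of all windows, IVM libraries 39 to 46 were below IVO, with 13.6% in 6 oocytes at EZH2, 40.0% in 6 at KDM5A, 74.3% in 4 at HDAC4, 45.6% in 5 at SETDB1 and 55.4% in 8 at KMT2E.

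Of 4 genes of the oocyte and of meiosis, 2 were lower and 2 higher in IVM, beside 57.3% and 42.5% of all windows. PADI6, a maternal factor of the egg cytoplasm, lay in a lowly methylated window with 19.3% in 10 IVM and 10.9% in 7 IVO oocytes. CDK2, a kinase required in meiotic prophase, had 64.3% and 53.8%. HSF2BP, which acts in meiotic recombination, had 85.1% and 92.5%, and SMC1B, the meiotic cohesin subunit, 71.7% and 76.1%. At HSF2BP, 1 of 16 IVM oocytes was at 0%, and the median was 100% in both groups. At SMC1B, 1 of 17 IVM and 1 of 15 IVO oocytes were at 0%, with medians of 84.8% and 92.7%. Means without the oocytes at 0% were not computed, so both directions may rest on single oocytes. In IVM libraries 39 to 46, PADI6 was at 9.72% in 3 oocytes and SMC1B at 90.7% in 8, each on the other side of IVO, while CDK2 was at 63.0% in 7 and HSF2BP at 86.9% in 7. The values of IVM and IVO oocytes overlapped in every measured window of these gene lists.

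Oocytes of different groups were about as alike as oocytes of the same group. Pearson's r over the windows that a pair of oocytes shared had a median of 0.334 in 153 pairs within IVM (SD 0.103), 0.279 in 190 pairs within IVO (SD 0.064) and 0.308 in 360 pairs between them (SD 0.083), and pairs share oocytes. The median between groups thus lay between those within the groups. The same order was found for the share of windows in which both oocytes lay on the same side of 50%, with medians of 65.4% within IVM, 63.9% within IVO and 64.5% between. The mean absolute difference of a pair was 29.5, 31.7 and 31.0 points. In the 23118 windows with a level between 20 and 80%, median r was 0.173, 0.146 and 0.157.

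Concordance followed coverage. Over all 703 pairs, r of a pair and the smaller number of windows of its oocytes had a correlation of 0.844. Where both oocytes had at least 20000 windows, median r was 0.402 within IVM (78 pairs, SD 0.0319), 0.317 within IVO (91 pairs, SD 0.0456) and 0.349 between (182 pairs, SD 0.0453). Where 1 or both had fewer windows, it was 0.247, 0.247 and 0.246 in 75, 99 and 178 pairs. The higher concordance within IVM was thus seen among well covered oocytes, whose pairs also shared more windows, with a median of 20493 within IVM, 17009 within IVO and 18259 between. The part of coverage in this order was not tested.

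The most concordant partner of an oocyte was often from the other group. Of 18 IVM oocytes, 15 had their highest r with an IVO oocyte, and of 20 IVO oocytes, 11 with an IVM oocyte. These partners were few, since IVO library 28 was the best partner of 19 oocytes and IVM library 12 of 8. Library 28 was the best covered oocyte, with 32331 windows, and library 12 had 30779. Among oocytes with at least 20000 windows, 11 of 13 IVM oocytes had an IVO partner and 6 of 14 IVO oocytes an IVM partner.

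**Figure D5:**
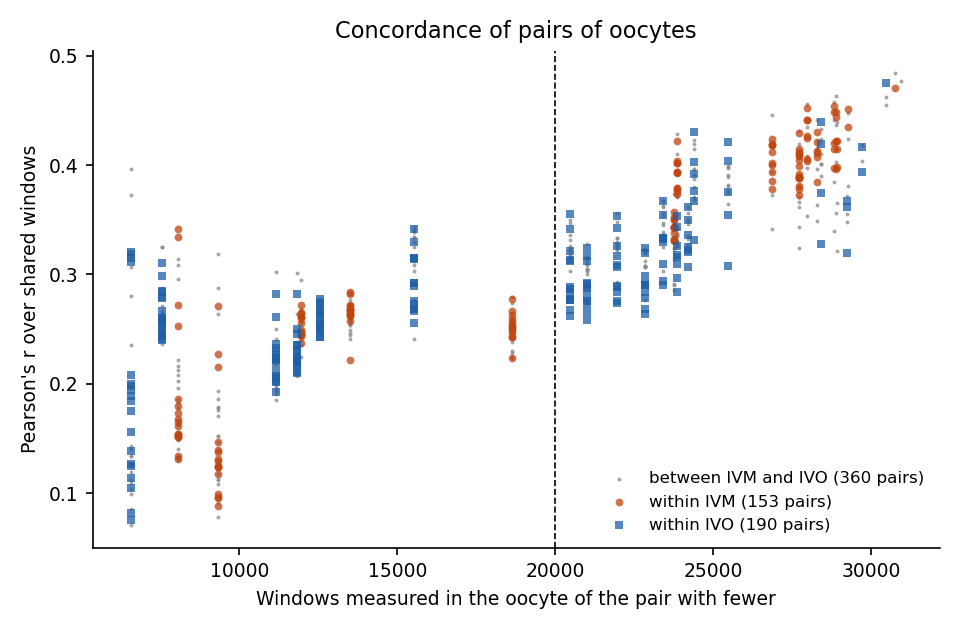
Pearson's r of each pair of oocytes over their shared windows against the number of windows measured in the oocyte with fewer, for 153 pairs within IVM (circles), 190 within IVO (squares) and 360 between (dots), with a dashed line at 20000 windows. r rises with coverage, and the pairs between groups lie among those within groups.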

How the data were processed

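The scBS-seq libraries were made from the DNA left after mRNA capture of single oocytes. According to the methods and the submitters' processing notes, the authors trimmed reads with Trim Galore (0.4.4), mapped them with Bismark (0.18.2) to UMD3.1.1, removed duplicates and quantified windows in SeqMonk. The methods also state that libraries with low coverage or signs of somatic DNA were left out, and the table holds columns for all 46 libraries. The deposited unit is the percent of methylated CpG calls per window and oocyte, without the number of calls, so depth per window is unknown. Its name gives 20 CpGs per window, while the methods describe tiles of 100. The expression table was not used here, and 0 columns lacked a sample.

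A window's level is the mean over the oocytes measured, the difference is IVM minus IVO, and neighbours are consecutive windows on a chromosome. The windows, oocytes and gene lists were chosen with earlier results of these data known. Named were all autosomes, with 3 at each end in detail, the 5 lowest and 5 highest blocks of 10 windows, the 5 lowest and 5 highest windows with at least 10 oocytes per group, and promoter windows of the gene lists on chromosomes 1 to 5. Some genes of these lists are not reported here and are left out of their counts. Promoter coordinates came from the study's promoter list, of which only coordinates were used and which was held only in part. No sequence is printed, as no UMD3.1 genome was used here. Alternatives covered the minimum number of oocytes, coverage, the average, weighting, centring, measures of concordance and each oocyte left out. The code was tested on simulated data. Python 3.11.15, numpy 2.4.6, pandas 2.3.3 and matplotlib 3.10.9 were used.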

Additional observations from a re-analysis of the deposited data

Results flagged for a closer look

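In the 8 oocytes of IVM libraries 39 to 46, library 41 stood apart from the other 7 in each of 3 measures, by a gap wider than Dixon's critical value for 8 samples, which chance exceeds in about 1 in 20 groups. Its mean methylation was 76.7%, compared with a median of 56.6% over the 8 oocytes. It was measured in 8549 windows, compared with a median of 25460. Its deviation from the window level was 13.1 points, compared with a median of -2.67 points. The measures are not independent of each other.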

How the results depend on the processing

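The mean difference stayed negative in each alternative in which it was recomputed. It was negative on 29 of 29 autosomes wherever these were recomputed, but the 29 signs share their oocytes. It was -2.23 points with at least 3 oocytes per group, -2.53 with at least 10, -3.58 with medians over oocytes, -2.57 with windows weighted by length and -2.97 with IVM libraries 39 to 46. It ranged from -2.68 (without IVM library 16) to -1.99 (without IVM library 12) when each oocyte was left out in turn and was -2.63 with oocytes of at least 10000 windows, both chosen after seeing the data, as was the linear adjustment for windows measured (-0.713, the autosomes not recomputed). With at least 10 oocytes of each group, windows past 20 points fell to 1224 lower and 452 higher, among fewer windows. The correlation of neighbouring differences lay between 0.024 and 0.032. In windows of 20 to 80%, median concordance fell to 0.173 within IVM, 0.146 within IVO and 0.157 between groups, by construction without the extreme windows. No paired analysis was possible because no label names the cow of an oocyte and IVM was not tested against IVO. Coverage per oocyte and the unknown number of CpG calls limit what single windows show.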
